A study of Homo sapiens with 24 samples.

Results

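The genes described here encode proteins of the cytosolic ribosome, the particle that translates mRNA outside mitochondria. They were taken by symbol, as RPL or RPS followed by a number with an optional letter, plus RPLP0, RPLP1, RPLP2 and RPSA, without the RPS6K kinases. The files held 31 of them, the same 31 in both batches, of 6603 genes common to the libraries of batch 1 and 7223 listed in batch 2. Of these, 16 belong to the large subunit and 15 to the small one. The RefSeq gene table holds 86 protein-coding symbols of this form, so the 31 are an incomplete set, and the rest were not analysed here. RPL22L1 and RPS27L are paralogues of RPL22 and RPS27.

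All libraries came from DLD1, a colorectal adenocarcinoma cell line of human origin grown in DMEM with fetal bovine serum. TT-seq, which sequences RNA labelled during a short pulse, gave the newly made RNA. In every line a dTAG degron had been knocked in at an Integrator gene, so that adding the small molecule dTAG13 leads to loss of that protein. The Integrator complex attenuates early transcription by RNA polymerase II and carries 2 enzymes, the RNA endonuclease INTS11 and the phosphatase PP2A, the binding of which needs INTS8. The study set the endonuclease against the phosphatase. The INTS11-dTAG line was treated for 3 h with dTAG13 or with DMSO, the vehicle, in batch 1, and for 0, 1 and 3 h with dTAG13 in batch 2. The INTS8-dTAG line was treated for 3 h with dTAG13 or DMSO in batch 1. The third line, called N211del here, carried the tag at INTS8 and ectopic INTS8-N211del, and was treated for 3 h with dTAG13 or DMSO in batch 1 and for 0, 1 and 3 h with dTAG13 in batch 2. There were thus 12 groups with 2 libraries each. Loss of the protein cannot be told apart from other effects of dTAG13, since no untagged line received it, nor in batch 2 from handling and time, since the only controls there are at 0 h. The sources used here do not say whether a line is 1 clone.

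Ribosomal protein genes are among the most heavily transcribed genes of a growing cell, because every ribosome needs a copy of nearly every protein. Their mRNAs typically begin with a C in a run of pyrimidines, the 5′ terminal oligopyrimidine tract, through which mTOR signalling and LARP1 control their translation and stability. Several of them carry small nucleolar RNAs in their introns.

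The deposited values are a signal per kilobase of whole gene, introns included, so levels can be compared between genes. Gene lengths were found from the batch 1 values, as lengths that turn these values into whole numbers. Multiplied by them the values give whole-number units, 5517104 to 8119831 in a library of batch 1 and 8709270 to 11266585 in one of batch 2. A typical ribosomal protein gene (the median of 31) held 905 to 1273 units per library in batch 1, but RPS27L held only 65 to 114, so its values are the least precise. Batch 1 values carry no visible scaling for depth. In 6 of the 12 groups the 2 libraries differed by no more than counting noise. The labels call them biological duplicates, and n = 2 was kept. The p-values measure the spread between these libraries, which may in part be technical. Of 13 colorectal epithelial markers, 10 were listed in batch 1 with a summed level of 2466 to 3266, and of 8 blood, fibroblast and endothelial markers none was listed there. In batch 2, 11 of the 13 were listed, and of the 8 only COL1A1, at no more than 0.318. In bulk RNA, fewer cells and less RNA per cell cannot be told apart.

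Start-site sequences are shown for members on which the results turn, because the pyrimidine tract is the shared sequence feature of this family. RefSeq promoters of build GRCh38.p14 matched 26 of the 31 genes. RPL30, RPL37 and RPS15A were among those without an entry. Each line gives 30 bases of the transcribed strand, 5′ to 3′, with 15 on each side of the boundary before the first transcribed base, and capitals mark the run of C or T that covers that base where it is at least 5 bases long. They lie at chr3:170870181-170870210 on the minus strand (RPL22L1), chr1:6199581-6199610 on the minus strand (RPL22), chr3:39406705-39406734 on the plus strand (RPSA), chr4:151099613-151099642 on the plus strand (RPS3A), chr9:19380222-19380251 on the minus strand (RPS6), chrX:72277234-72277263 on the minus strand (RPS4X) and chr15:63157463-63157492 on the minus strand (RPS27L).
RPL22L1: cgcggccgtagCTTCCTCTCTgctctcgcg
RPL22: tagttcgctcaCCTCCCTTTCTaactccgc
RPSA: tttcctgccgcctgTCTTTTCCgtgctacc
RPS3A: cgactcccacttccgCCCTTTTggctctct
RPS6: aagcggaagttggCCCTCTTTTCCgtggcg
RPS4X: gcagtctccagccccaatttctacgcgcac
RPS27L: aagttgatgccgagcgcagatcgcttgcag
The first 5 have the run and the last pair does not. In all, 19 of the 26 genes (73.1%) had such a run at a listed start, against 11.9% of the 27305 genes of the promoter table and 11.6% of the 5813 listed genes found in it. The 7 without it were RPL27, RPL32, RPL6, RPS15, RPS26, RPS27L and RPS4X. A run is a match of letters at an annotated start, and starts in DLD1 cells were not measured here.

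Levels were high and spanned a wide range. RPS6, a small subunit protein and the classical substrate of S6 kinase, averaged 464.7 over the 12 libraries of batch 1, the highest of the 31, followed by RPL29 at 431.5. RPS27L was the lowest at 9.7, the 30.4th percentile of all genes, and RPS9 was next at 37.2, the 84.8th. The other 29 lay at or above the 96.1st percentile in batch 1. Their genes were short, between 2091 bp (RPS15) and 22944 bp (RPS24), against a median of 33636.5 bp for all genes. In batch 2 RPS6 was again the highest at 515.5 and RPS27L the lowest at 9.5. All 31 passed the filter on low values.

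**Figure D1:**
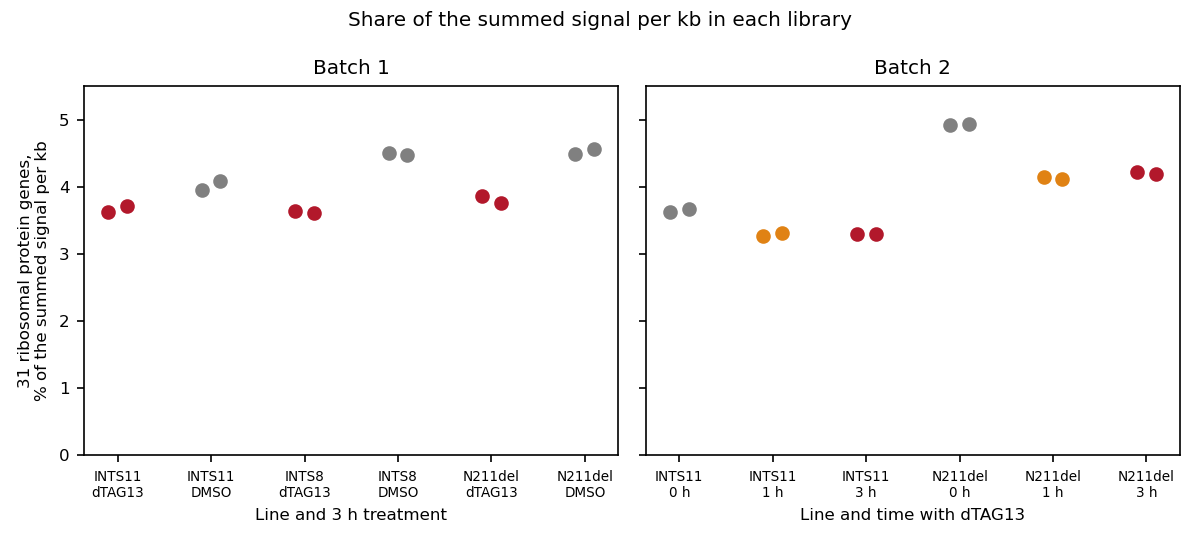
Summed signal per kb of the 31 ribosomal protein genes as a percent of the sum over all genes listed, for each library (points), by line and treatment in batch 1 and by line and time in batch 2. The dTAG13 libraries lie below their DMSO or 0 h libraries in every line, for instance 3.61 to 3.63% against 4.47 to 4.51% in the INTS8 line.

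The 31 genes took a smaller share of the summed signal after dTAG13 in every line. In batch 1 they made up 3.62 and 3.71% of it in INTS11 dTAG13 libraries, against 3.95 and 4.09% with DMSO. In the INTS8 line they made up 3.63 and 3.61% with dTAG13, against 4.51 and 4.47% with DMSO. The N211del line had 3.86 and 3.76% with dTAG13, against 4.49 and 4.56% with DMSO. In each line both dTAG13 libraries lay below both DMSO libraries. With 2 libraries a group no permutation test of 1 value can reach 0.05, so none is given.

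After 3 h of dTAG13 in the INTS11 line of batch 1, 22 of the 31 ribosomal protein genes fell and 0 rose (0 also at an unadjusted p under 0.05), where 19.8% of the 6579 genes tested fell and 19.4% rose (limma, adjusted p under 0.05, here and for every call). Their median log2 fold change was -0.21, against -0.03 over all genes. The fallen genes were 12 of 16 of the large subunit, such as RPL22L1, RPL22, RPL39 and RPL37, and 10 of 15 of the small one, such as RPSA, RPS26 and RPS15A. The median SE of a member's fold change was 0.06, and 30 of the 31 lay below the median gene. When each library was centred on its median gene 21 fell (24.5% of all genes). Fold changes ran lower at higher levels across all genes (Spearman rho -0.38 over 6579 genes), and with that trend removed by cyclic loess 13 members fell (21% of all genes) and their median was -0.08. The count was 14 without INTS11 dTAG13 replicate 1, and 9 when pairs that agree within counting noise were counted as 1 sample.

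In the INTS8 line 24 of the 31 fell and 0 rose (0 also at an unadjusted p under 0.05), where 21% of all genes fell and 34.6% rose. The median member stood at -0.26, against 0.06 for all genes, and 30 of the 31 lay below the median gene. In the large subunit 14 of 16 fell, such as RPL22L1 and RPL27, and in the small subunit 10 of 15, led by RPSA and RPS15A. RPL14, RPLP1, RPS24, RPS27L, RPS4X and RPS9 were among those that did not pass the test. With centring 29 fell (36.4% of all genes), and with cyclic loess 18 fell (31.6% of all genes) with a median of -0.14. In both the INTS11 and the INTS8 line 20 of the genes fell, as did 10.7% of all genes.

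The N211del line gave fewer calls as deposited. After 3 h of dTAG13 RPL22L1, RPS3A, RPSA and RPS15A fell, 4 of 31, and RPS27L rose, where 7.1% of all genes fell and 48.5% rose. The median member stood at -0.06, but the median of all genes was 0.21, so the members again lay below it, 30 of 31. Here the scaling decides the count. Centred on the median gene, 30 fell and 1 rose (35.2% and 26.9% of all genes), with a median of -0.32. With cyclic loess 13 fell (28.8% of all genes), with a median of -0.10. The deposited count was 2 without N211del dTAG13 replicate 1, 7 without replicate 2, and 1 with pairs that agree within counting noise counted as 1 sample. The median member lay below the all-gene median in all 3 lines, at differences of -0.18, -0.32 and -0.27 (INTS11, INTS8, N211del) as deposited. Centring cannot change these differences, since it shifts all genes of a library alike. With cyclic loess they were -0.07, -0.13 and -0.08. Batch 1 values carry no visible scaling for depth, so falls as deposited can include differences in depth in every line. Whether absolute signal fell is not shown for any line, and in N211del cells the count called lower depends on the scaling.

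**Figure D2:**
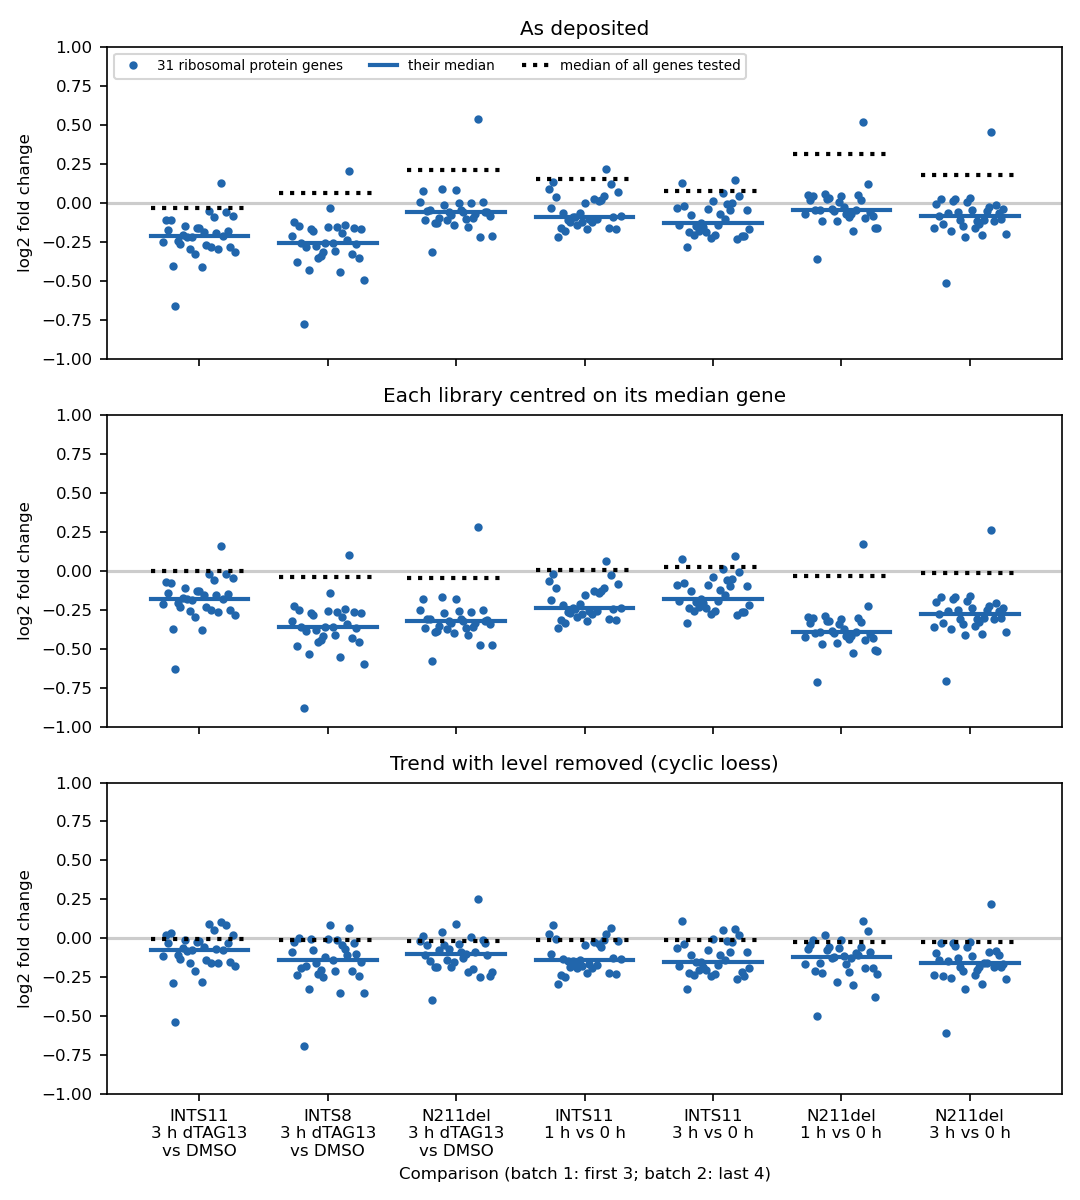
Log2 fold change of each of the 31 ribosomal protein genes (points), their median (solid line) and the median of all genes tested (dotted line) in 7 comparisons with DMSO or 0 h, as deposited, with each library centred on its median gene, and with the trend with level removed. The members' median lies below that of all genes in all 3 panels, by least with the trend removed. The gap is the same as deposited and with centring, which shifts all genes of a library alike.

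RPL22L1, the paralogue of RPL22 that can replace it in the large subunit, had the largest fall of any member in each line of batch 1. It had 83.5 and 81.4 in INTS11 dTAG13 libraries, against 126.9 and 134.4 with DMSO. It had 93.8 and 88.3 in INTS8 dTAG13 libraries, against 156.4 and 156.2 with DMSO, and 100.4 and 115.8 in N211del dTAG13 libraries, against 135.5 and 133.3 with DMSO. No dTAG13 library reached a DMSO library of its line. The log2 fold changes were -0.66 (SE 0.07, adjusted p = 1.5e-07) for INTS11, -0.78 (SE 0.07, adjusted p = 2.13e-09) for INTS8 and -0.32 (SE 0.07, adjusted p = 0.000441) for N211del. With cyclic loess they were -0.54, -0.69 and -0.40, and each still passed.

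RPL22 itself, a large subunit protein known in mice to repress Rpl22l1, followed a different order of lines as deposited. It had 70.5 and 71.8 in INTS11 dTAG13 libraries, against 90.6 and 98.1 with DMSO, a fall of 24.5% (log2 -0.41, SE 0.07, adjusted p = 5.6e-05). In the INTS8 line it had 98.0 and 90.5 with dTAG13, against 111 and 114 with DMSO (log2 -0.26, adjusted p = 0.00212). N211del libraries had 79.1 and 85.0 with dTAG13, against 85.6 and 83.8 with DMSO, and these overlapped (log2 -0.05, adjusted p = 0.569). Centred on the median gene, the N211del value was -0.31 and passed. INTS11 and N211del responses of RPL22 differed by -0.36 as deposited (adjusted p = 0.00416), and by -0.06 with centring (adjusted p = 0.39).

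RPSA, a small subunit protein that also acts as a laminin receptor, was among the 4 genes that fell in all 3 lines of batch 1, as 3.77% of all genes did. It had 260 and 256 in INTS11 dTAG13 libraries, against 306 and 338 with DMSO, and 289 and 268 in INTS8 dTAG13 libraries, against 397 and 386 with DMSO. N211del libraries held 277 and 267 with dTAG13, against 314 and 317 with DMSO. Each pair of dTAG13 libraries lay below its DMSO pair, by log2 values of -0.32, -0.49 and -0.21 for INTS11, INTS8 and N211del (adjusted p = 0.000375, 6.14e-07 and 0.0057). RPSA has 74 pseudogene symbols in RefSeq, RPS26 59, RPS3A 54, and RPS15A and RPL39 40 each. Reads could be shared with copies, so these levels are uncertain. The same holds to some degree for other members, and of the 31 only RPL22L1 and RPS27L have 0.

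RPS3A and RPS15A, both of the small subunit, completed that group. RPS3A changed by -0.21, -0.33 and -0.22 in the INTS11, INTS8 and N211del lines, the last not called without N211del dTAG13 replicate 1 (-0.15). RPS15A changed by -0.29, -0.45 and -0.15 (adjusted p = 0.000973, 2.23e-06 and 0.0417). With pairs that agree within counting noise counted as 1 sample, the N211del calls of RPS3A, RPS15A and RPSA were lost.

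RPS27L, the small subunit paralogue known as a p53 target, was the only member that rose in a 3 h comparison of batch 1. Whether p53 was involved was not tested. N211del libraries had 11.1 and 10.7 with dTAG13, against 7.91 and 7.04 with DMSO, a rise of 45.3% (log2 0.54, SE 0.10, adjusted p = 8.27e-05). INTS8 libraries had 12.2 and 12.4 with dTAG13, against 10.6 and 10.7 with DMSO, which did not pass (log2 0.20, adjusted p = 0.0883). INTS11 libraries had 8.995 and 8.56 with dTAG13, against 7.15 and 8.995 with DMSO, and overlapped (log2 0.13, adjusted p = 0.32). Centred on the median gene the N211del rise was 0.28 (adjusted p = 0.035), and with cyclic loess 0.25 (adjusted p = 0.053).

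**Figure D3:**
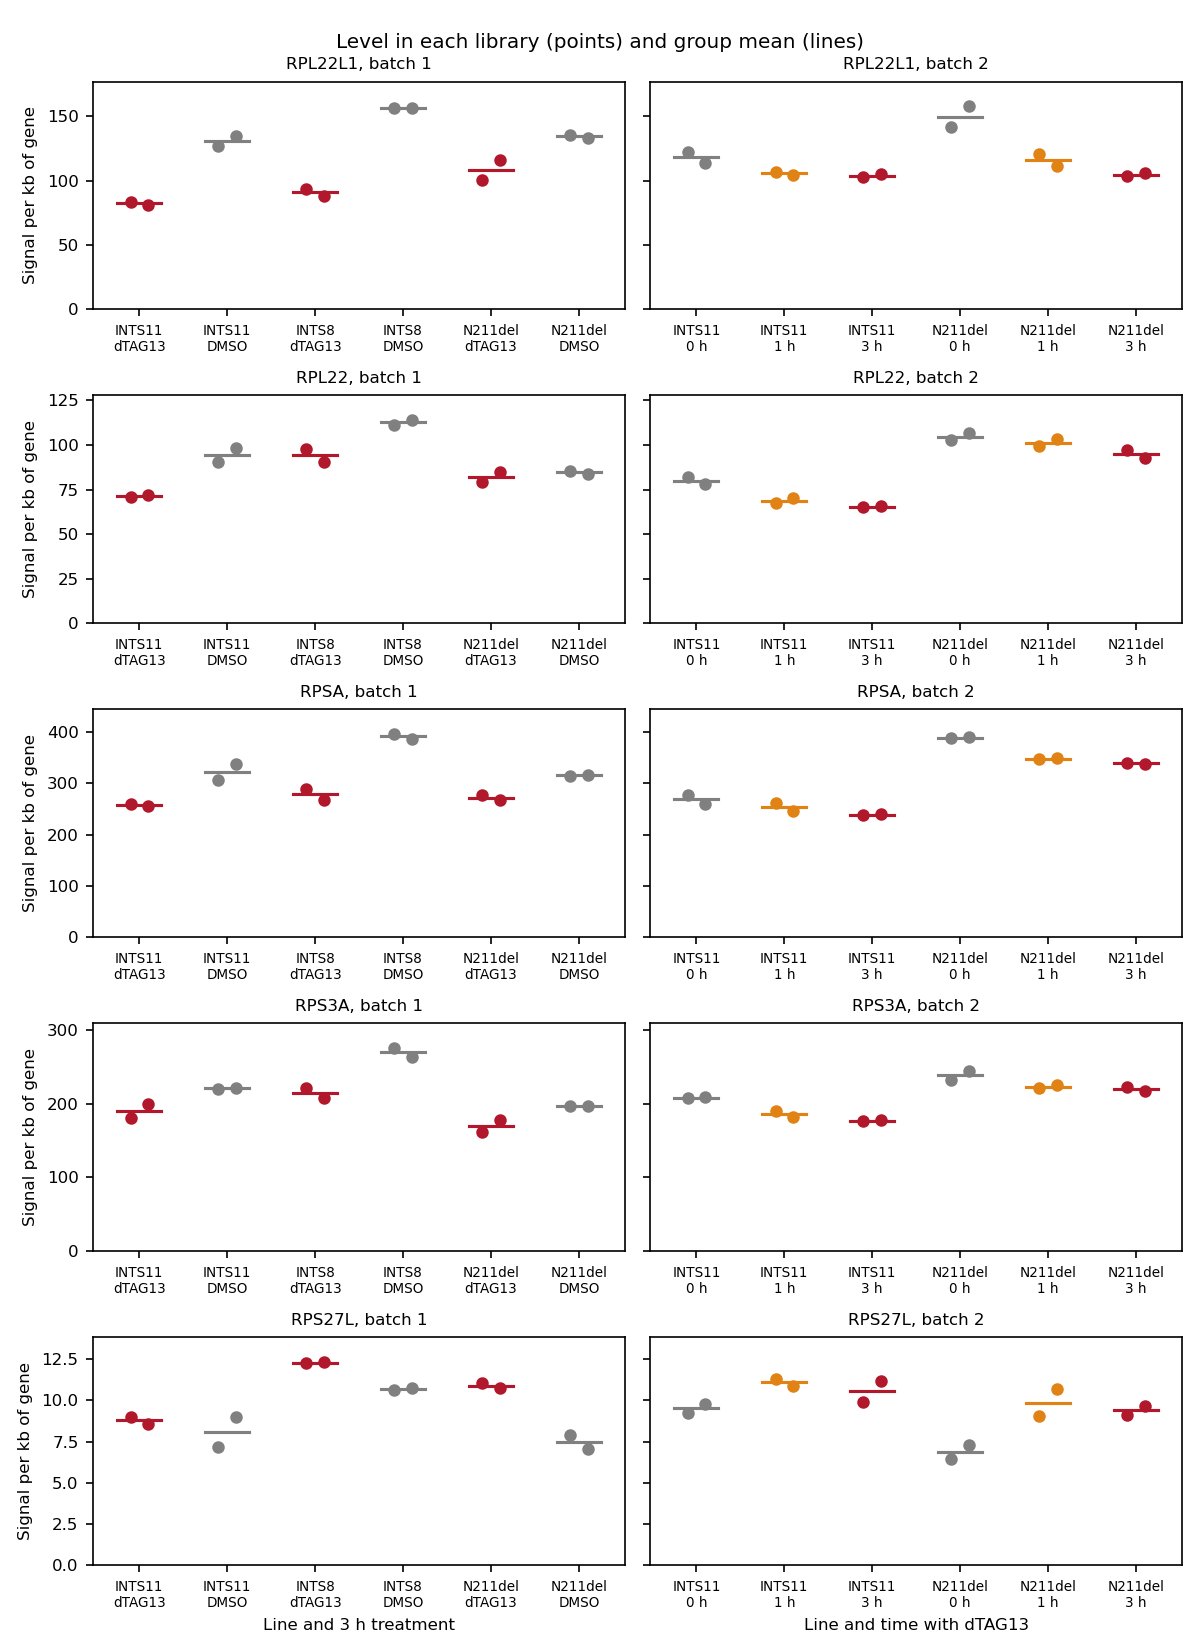
Signal per kb of RPL22L1, RPL22, RPSA, RPS3A and RPS27L in each library (points) and as the group mean (short lines), with dTAG13 beside DMSO in batch 1 and 0, 1 and 3 h of dTAG13 in batch 2. RPL22L1 and RPS3A lie below their controls in every line. RPS27L lies above its controls in every line except in the INTS11 line of batch 1, where they overlap, and passed the test only in the N211del line.

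The time course of batch 2 showed the lower level after 1 h. In the INTS11 line 11 of the 31 genes fell and 2 rose at 1 h, where 9.86% of all genes fell and 46% rose, and the median member stood at -0.09 while the median gene stood at 0.16. At 3 h 16 fell and 1 rose, where 19.3% of all genes fell and 36% rose, with a member median of -0.13 and an all-gene median of 0.08. Both times are read against the same 0 h libraries. RPL22 had 81.7 and 77.9 at 0 h, 67.2 and 70.2 at 1 h and 65.2 and 65.7 at 3 h, without overlap with 0 h (log2 -0.22 at 1 h, adjusted p = 0.00167, and -0.29 at 3 h, adjusted p = 0.000356). RPL27 changed by -0.18 at 1 h and -0.21 at 3 h, RPS3A by -0.16 and -0.23, and RPL6 by -0.12 and -0.22, and all of these passed. RPL22L1 changed by -0.16 at 1 h and -0.19 at 3 h, and its 1 h call was lost without 0 h replicate 1 (-0.11), 1 h replicate 1 (-0.18) or 1 h replicate 2 (-0.14).

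Scaling mattered here too. Centred, 25 fell at 1 h and 20 at 3 h (30.3% and 28.9% of all genes) and 0 rose at 3 h (31.8% of all genes), and with cyclic loess 20 and 19 (28.1% and 30.8%). The deposited count at 1 h was 5 without 0 h replicate 1, 6 without 1 h replicate 1 and 7 without 1 h replicate 2, and with like pairs counted as 1 sample it was 4 at 1 h and 8 at 3 h.

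Between 1 and 3 h no member of the INTS11 line passed the test (limma, with 6 lower and 0 higher at an unadjusted p under 0.05), where 15.1% of all genes fell and 0.475% rose. The members' median was -0.05 and that of all genes -0.09. With centring 0 fell and 1 rose (1.21% and 1.55% of all genes). As deposited 1 was called without 1 h replicate 2. The median member therefore differed from the median gene most between 0 and 1 h.

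N211del cells gave 6 members lower and 2 higher at 1 h, where 4.92% of all genes fell and 66% rose, and 14 lower and 1 higher at 3 h, where 13.8% fell and 49.7% rose. Their medians were -0.05 and -0.08, while the median gene stood at 0.31 and 0.18. RPL22L1 had 141 and 158 at 0 h, 121 and 112 at 1 h and 103 and 106 at 3 h. Both later times lay below 0 h, at log2 -0.36 (SE 0.06, adjusted p = 0.000353) and -0.51 (SE 0.06, adjusted p = 4.49e-05). RPS15A changed by -0.18 at 1 h and -0.21 at 3 h and RPSA by -0.16 and -0.20, and all 4 values passed. RPL39, one of the shortest proteins of the large subunit, fell by 0.22 at 3 h (adjusted p = 0.00314).

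The same count with each library centred was 30 at 1 h and 30 at 3 h (36.1% and 35.1% of all genes), with medians of -0.40 and -0.28, and with cyclic loess 20 and 23 (32.3% and 34% of all genes), with medians of -0.12 and -0.16. As deposited it was 3 at 1 h without 0 h replicate 2 or without 1 h replicate 2, and 7 at 3 h without 0 h replicate 2 or without 3 h replicate 2. Between 1 and 3 h RPS4X was the only member called (log2 -0.14, adjusted p = 0.0171), where 35% of all genes fell and 2.2% rose, and it was not called without N211del 1 h replicate 1, 1 h replicate 2 or 3 h replicate 2 (-0.14, -0.14 and -0.11). Centring put it at 0.015. With centring 11 members rose over that interval (11.6% of all genes).

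RPS27L rose in N211del cells in batch 2 as well. It had 6.41 and 7.26 at 0 h, 9.06 and 10.7 at 1 h and 9.13 and 9.68 at 3 h. Every later library lay above both 0 h libraries, by log2 0.52 at 1 h (SE 0.09, adjusted p = 0.000581) and 0.46 at 3 h (SE 0.09, adjusted p = 0.00167). With centring these were 0.17 (adjusted p = 0.15) and 0.26 (adjusted p = 0.038), and with cyclic loess 0.11 and 0.22, neither of which passed. In the INTS11 line it had 9.26 and 9.78 at 0 h, 11.3 and 10.9 at 1 h and 9.92 and 11.2 at 3 h, which did not pass (log2 0.22 and 0.15).

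RPS4X, the X-linked small subunit protein, rose by 0.12 at 1 h in both lines as deposited. In INTS11 cells it had 209 and 195 at 0 h and 223 and 218 at 1 h, and in N211del cells 321 and 331 at 0 h and 356 and 354 at 1 h. With centring the direction turned to -0.031 and -0.23, so its rise did not exceed that of the median gene. The INTS11 call was lost without 0 h replicate 2 (0.07) or 1 h replicate 1 (0.11), and the N211del call without 0 h replicate 1 (0.10) or 1 h replicate 1 (0.12).

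**Figure D4:**
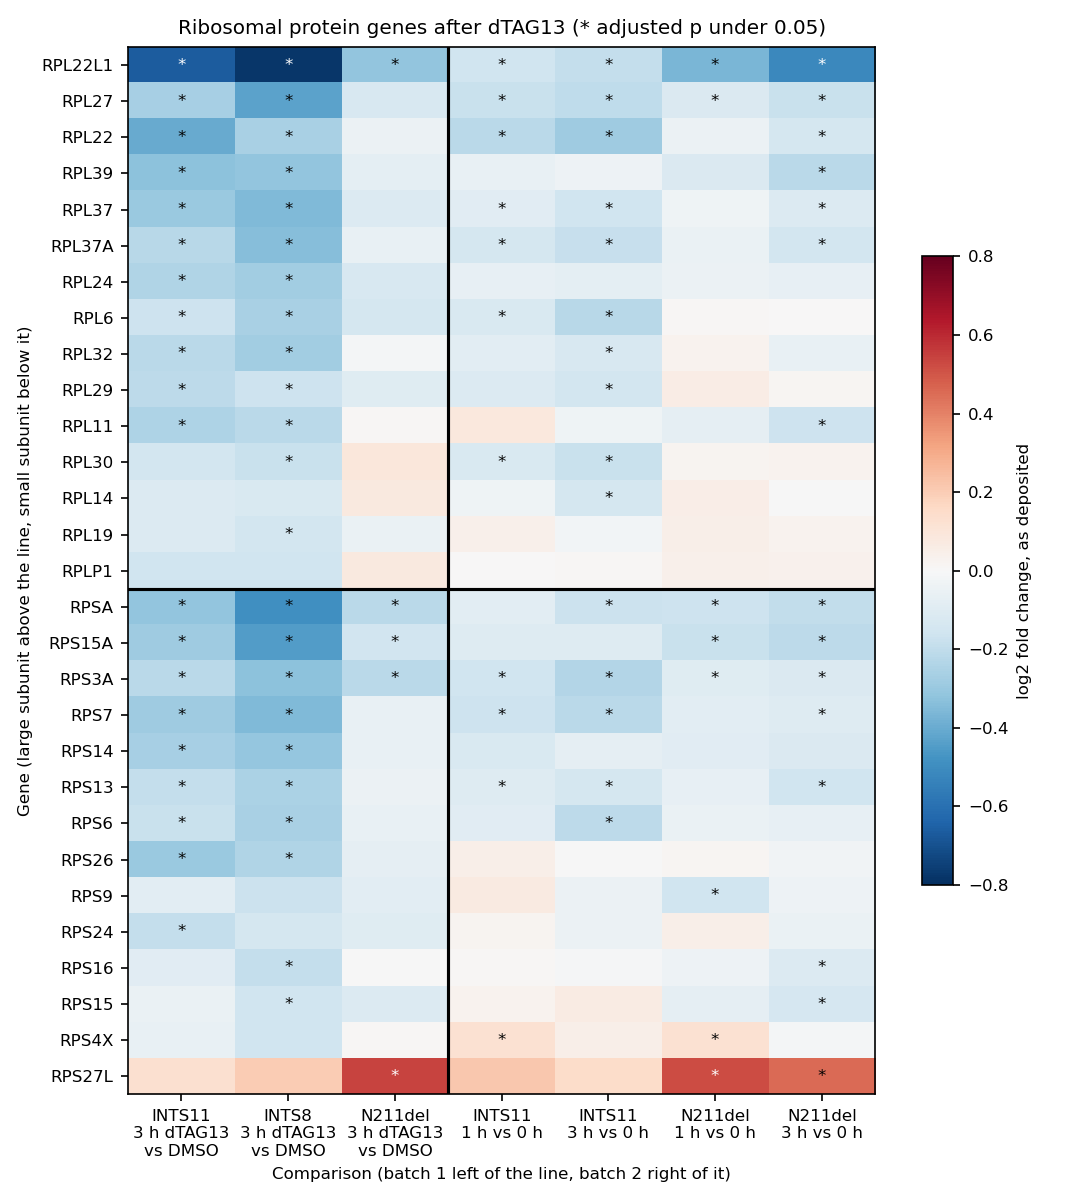
Log2 fold change as deposited (colour, blue lower and red higher) of 29 ribosomal protein genes (rows, large subunit above the line) in 7 comparisons with DMSO or 0 h (columns), with an asterisk where the adjusted p was under 0.05. RPL22L1 is the deepest blue in the 3 columns of batch 1 and in the N211del columns of batch 2, and RPS27L is the only row that is red in all 7 columns.

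Across the 5 comparisons of 3 h dTAG13 with DMSO or 0 h, 3 genes fell in every one, RPL22L1, RPS3A and RPSA (2.19% of all genes did). In at least 1 of them 27 fell (38.6% of all genes), and RPLP1, RPS27L, RPS4X and RPS9 fell in none. RPLP1 is an acidic protein of the ribosomal stalk that binds elongation factors. With each library centred, 15 fell in all 5 (11.4% of all genes). Batches 1 and 2 share no library, and 14 genes fell at 3 h in the INTS11 line in both, as did 4 in the N211del line, where 11.9% and 5.65% of all genes did. The members' fold changes in the 2 batches ran together, at Pearson r = 0.57 and Spearman rho = 0.49 for INTS11 and r = 0.84 and rho = 0.51 for N211del over 31 genes. Without RPL22L1 and RPS27L these were r = 0.49 and rho = 0.42, and r = 0.48 and rho = 0.40. The points share the gene models and, within a batch, the libraries, so these are descriptions with no test. RPL22L1 itself changed by -0.66 in batch 1 and -0.19 in batch 2 in INTS11 cells, and the batch 2 call was lost without 0 h replicate 1 (-0.14) or either 3 h library (-0.17 and -0.20).

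Differences between the lines' responses were tested directly. INTS11 minus INTS8 passed for 1 member, more negative in INTS11 cells, where 19.4% of all genes were more negative and 6% less negative. With centring 14 members passed instead, all with the less negative value in INTS11 cells (20.9% of all genes in that direction), and without INTS11 DMSO replicate 2 the deposited count was 3. N211del minus INTS8 passed for 7, all less negative in N211del cells (9.04% of all genes, with 2.01% more negative), led by RPL22L1 (log2 difference 0.46, SE 0.10, adjusted p = 0.00726) and RPL27, which forms part of the large subunit (0.30, SE 0.09, adjusted p = 0.0356). That count was 1 with centring (4.36% of all genes in that direction) and 18 without N211del dTAG13 replicate 1. It was 1 without N211del dTAG13 replicate 2, INTS8 dTAG13 replicate 2 or any 1 of the N211del and INTS8 DMSO libraries. RPL22L1 stayed called with centring (0.30, adjusted p = 0.0053). RPL27 was not called with centring (0.15, adjusted p = 0.12) or without any 1 of those 6 libraries (0.24 to 0.31).

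INTS11 minus N211del in batch 1 passed for 10 members, all more negative in INTS11 cells, where 43.7% of all genes were more negative and 4.8% less negative. Centred, 7 passed and all were less negative in INTS11 cells (18.8% of all genes), so the direction of this difference follows the scaling. The deposited count was 3 without INTS11 DMSO replicate 2, 4 without N211del DMSO replicate 1, INTS11 dTAG13 replicate 1 or N211del dTAG13 replicate 2, and 6 without N211del DMSO replicate 2 or INTS11 dTAG13 replicate 2. RPS27L differed by -0.41 (SE 0.14, adjusted p = 0.021), and did not pass with centring (-0.12). RPS27L was also not called without INTS11 DMSO replicate 2 (-0.25), N211del DMSO replicate 2 (-0.33), INTS11 dTAG13 replicate 2 (-0.38) or either N211del dTAG13 library (-0.39 and -0.43).

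In batch 2 the INTS11 and N211del responses differed for 3 members at 1 h, with 2 more negative and 1 less negative in INTS11 cells, where 39.3% and 9.24% of all genes were. At 3 h they differed for 8, with 5 more negative and 3 less negative, where 35.8% and 15.2% of all genes were. At 3 h RPL22L1 had fallen less in INTS11 cells (log2 difference 0.33, SE 0.08, adjusted p = 0.00924) and RPL6, a large subunit protein, had fallen more (-0.23, SE 0.06, adjusted p = 0.0106). RPL22L1 passed with centring (0.47, adjusted p = 0.00044), and RPL6 did not (-0.08, adjusted p = 0.062). In batch 1 RPL22L1 had the other order, at -0.66 in INTS11 and -0.32 in N211del cells as deposited. With centring these batch 1 values were -0.63 and -0.58, so the batch 2 difference was not seen in batch 1. At 1 h RPL29 and RPL22 differed by -0.17 each (adjusted p = 0.0414 and 0.0375). Both turned to 0.028 with centring, and leaving out INTS11 0 h replicate 1, INTS11 1 h replicate 1 or N211del 0 h replicate 1 ended each call (-0.13 to -0.16). RPL29 was also lost without INTS11 1 h replicate 2 (-0.18), N211del 0 h replicate 2 (-0.18) or N211del 1 h replicate 1 (-0.13), and RPL22 without N211del 1 h replicate 2 (-0.14). The count at 1 h was 1 without INTS11 0 h replicate 1, INTS11 1 h replicate 1 or N211del 1 h replicate 2, and the count at 3 h was 5 without INTS11 3 h replicate 1 or N211del 3 h replicate 1. With centring 19 and 13 members passed, all less negative in INTS11 cells (25.8% and 28.7% of all genes).

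Before treatment the lines also differed at these genes. In batch 2 at 0 h, 30 of the 31 were higher in the N211del line than in the INTS11 line and 1, RPS27L, was lower, where 38.4% of all genes were higher and 31.6% lower. The median member differed by 0.43 and the median gene by 0.05, and the same 30 to 1 split was found with centring. RPS9, a small subunit protein, differed most, with 60.4 and 62.8 in N211del libraries, against 34.3 and 33.1 in INTS11 libraries (log2 0.87, SE 0.06, adjusted p = 1.51e-06). RPLP1 followed, with 467 and 470 in N211del libraries, against 288 and 283 in INTS11 libraries (log2 0.71, SE 0.04, adjusted p = 4.25e-07). For RPS27L, N211del libraries had 6.41 and 7.26, against 9.26 and 9.78 in INTS11 libraries (log2 -0.47, SE 0.09, adjusted p = 0.00111).

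The DMSO libraries of batch 1 did not give the same picture. There 9 members were higher and 5 lower in the N211del line than in the INTS11 line, where 19.7% of all genes were higher and 45.9% lower, with a member median of 0.00 and an all-gene median of -0.17. With centring 21 were higher and 0 lower (36.8% and 31.4% of all genes). With cyclic loess 8 were higher and 7 lower (32.4% and 34.9% of all genes), and with a loess on gene length 1 was higher and 24 lower (24.3% and 42% of all genes), at a member median of -0.26, so the direction of this difference follows the scaling. Without N211del DMSO replicate 2 the deposited count of both directions was 6. RPS15, a small subunit protein, was higher in the N211del line (log2 0.43, SE 0.06, adjusted p = 2.45e-06), which turned to -0.036 when each library was corrected for gene length. As deposited, both batches had the N211del line above the INTS11 line for 9 genes, and 5 were below it in batch 1 and above it in batch 2, where 7.37% and 20.1% of all genes were. RPL14 was one of these, with 123 and 121 in N211del DMSO libraries, against 143 and 145 in INTS11 DMSO libraries, and 171 and 175 in N211del 0 h libraries, against 111 and 109 in INTS11 0 h libraries. RPS9 differed by -0.11 in batch 1 and did not pass.

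**Figure D5:**
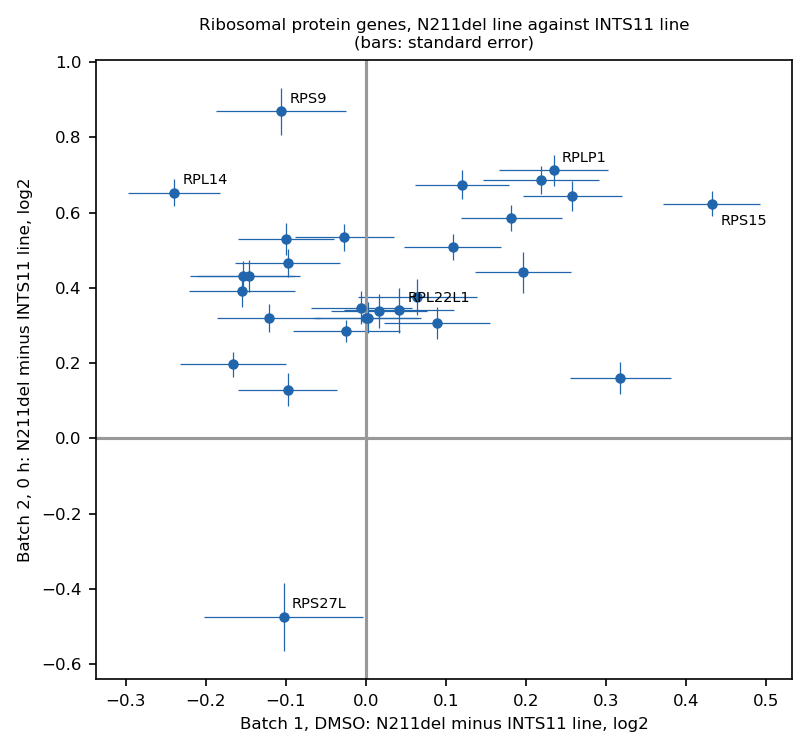
Log2 difference of the N211del line minus the INTS11 line for each of 29 ribosomal protein genes, in DMSO libraries of batch 1 (x axis) and 0 h libraries of batch 2 (y axis), with bars of 1 standard error. RPS27L is the only gene below 0 in batch 2, whereas the genes lie on both sides of 0 in batch 1.

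The INTS8 line stood above the INTS11 line for 29 of 31 members with DMSO, and below it for 0 (0 also at an unadjusted p under 0.05), where 26.8% of all genes were higher and 3.91% lower. The median member differed by 0.25 and the median gene by 0.10. RPS4X had 328 and 327 in INTS8 libraries, against 209 and 247 in INTS11 libraries (log2 0.53, SE 0.07, adjusted p = 5.93e-06). RPS27L came next, with 10.6 and 10.7 in INTS8 libraries, against 7.15 and 8.995 in INTS11 libraries (log2 0.41, adjusted p = 0.00298), and was not called without INTS11 DMSO replicate 1 (0.24). The count was 15 without INTS11 DMSO replicate 1, 16 without INTS8 DMSO replicate 2 and 17 with centring (21.2% of all genes). With cyclic loess 10 were higher (18.7% of all genes). With the loess on gene length 5 were higher (16.8% of all genes), at a member median of 0.02, so the size of this difference follows the scaling. The N211del line stood below the INTS8 line, from which its genotype differs by ectopic INTS8-N211del, for 21 and above it for 2, where 58.7% of all genes were lower and 5.03% higher. RPL6 had 253 and 251 in N211del libraries, against 371 and 362 in INTS8 libraries (log2 -0.54), and RPS27L differed by -0.51 (-0.20 with centring, which did not pass). With centring 4 were lower and 12 higher (26.3% of all genes each way), with cyclic loess 14 and 5 (27.9% and 24.2% of all genes) and with the loess on gene length 24 and 0 (27.1% and 17.2%), so this direction too follows the scaling. Line and clone cannot be told apart in these comparisons.

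The members can also be divided by features that the symbols did not use. The 19 genes with a pyrimidine run at their start had median log2 fold changes of -0.21, -0.26 and -0.06 in the INTS11, INTS8 and N211del lines of batch 1, and the 7 without one had -0.16, -0.24 and -0.07. At 3 h of batch 2 they had -0.14 and -0.11 with the run in the INTS11 and N211del lines, and 0.00 and -0.03 without it. The 9 genes listed as hosts of small nucleolar RNAs, which include RPL30, RPL32, RPS13 and RPSA, had -0.22, -0.31 and -0.08 in batch 1, and the other 22 had -0.20, -0.23 and -0.06. At 3 h of batch 2 the hosts had -0.16 in INTS11 cells and -0.11 in N211del cells (7 and 5 of 9 fell), and the other 22 had -0.07 and -0.06 (9 and 9 fell). Of all genes, 19.3% fell in INTS11 cells and 13.8% in N211del cells there. Large and small subunit genes of batch 1 had -0.22 and -0.19 in INTS11 cells, -0.27 and -0.24 in INTS8 cells and -0.07 and -0.06 in N211del cells. At 3 h of batch 2 they had -0.14 and -0.07 in INTS11 cells and -0.07 and -0.11 in N211del cells. None of these differences was tested. Among the 31 members, Spearman rho of fold change with level ran from 0.03 to 0.28 over the 9 treatment comparisons. With gene length it ran from -0.31 to -0.05. In INTS11 cells of batch 1 these were 0.25 and -0.20. Pearson r with level was -0.50 in N211del cells of batch 1. RPL32 overlaps CAND2, and RPL19, RPL24, RPL27 and RPLP1 overlap other annotated genes. The sources used here do not say whether the counts kept strands apart.

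Other genes of translation are set against the shares of all genes, of which 19.8%, 21% and 7.1% fell in INTS11, INTS8 and N211del cells of batch 1 and 19.4%, 34.6% and 48.5% rose. At 3 h of batch 2, 19.3% fell and 36% rose in INTS11 cells, and 13.8% fell and 49.7% rose in N211del cells. Of 10 tested genes on a list of elongation factors and other genes with pyrimidine-tract mRNAs, 8 fell in INTS11 cells and 8 in INTS8 cells of batch 1, with medians of -0.27 and -0.24, whereas in N211del cells 1 fell and 1 rose. At 3 h of batch 2, 6 fell in INTS11 cells, and 6 fell and 1 rose in N211del cells. NPM1, a nucleolar chaperone of ribosome assembly, fell in all 5 comparisons, by log2 -0.40, -0.52 and -0.15 in the INTS11, INTS8 and N211del lines of batch 1 and by -0.28 and -0.27 in INTS11 and N211del cells of batch 2.

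Of 12 tested initiation factor genes in batch 1, 6 fell in INTS11 cells (19.8% of all genes) and 7 in INTS8 cells (21%). In N211del cells of batch 1, 2 fell (7.1%) and 1 rose (48.5%). At 3 h of batch 2, 8 and 4 fell in INTS11 and N211del cells (19.3% and 13.8% of all genes). EIF4E, the cap-binding protein, changed by -0.82 in INTS11 cells and -0.41 in INTS8 cells of batch 1, and EIF1, which helps to select the start codon, by -0.46 and -0.76. Both fell in all 5 comparisons at 3 h, EIF4E by -0.19 and EIF1 by -0.48 in N211del cells of batch 1. Of 11 tested genes that control ribosomal protein production, 3 fell in INTS11 cells of batch 1 (19.8% of all genes). In INTS8 cells 5 fell and 1 rose (21% and 34.6%), and in N211del cells 2 fell and 3 rose (7.1% and 48.5%). TSC1, an inhibitor of mTORC1, fell in all 5, by -0.56 in INTS11 cells of batch 1 and by -0.69 in those of batch 2. MYC, which activates ribosomal protein genes, rose by 0.44 and 0.49 in INTS8 and N211del cells of batch 1, and was at -0.04 in INTS11 cells, which did not pass. At 3 h of batch 2, 3 of these control genes fell and 1 rose in INTS11 cells (19.3% and 36% of all genes). In N211del cells 5 fell and 3 rose (13.8% and 49.7%). The 3 of 11 control genes that fell in INTS11 cells of each batch are near the shares of all genes and are no result about that list. With centring, 9, 10 and 8 genes of the elongation, initiation and control lists fell in N211del cells of batch 1 (35.2% of all genes), so that direction follows the scaling as it does for the ribosomal protein genes. Centred, the lists gave medians of -0.23, -0.16 and -0.11 in INTS11 cells of batch 1 for the elongation, initiation and control lists, beside -0.18 for the 31 ribosomal protein genes.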

How the data were processed

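TT-seq libraries of DLD1 cells were grouped by the labels. The labels' treatment protocol gives 3 h for all samples, and the times in titles and characteristics were used. The submitters' processing notes list DESeq2 1.26.0, Picard 2.23.3, SAMtools 1.9, STAR 2.7.5c and Trim Galore 0.6.6, and as builds hg19 and mm10, without their roles. Per the labels' protocols the kit was stranded.

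The deposited values are headed FPKM, for which the test was planned, but they behave as a signal per kilobase of whole gene. Gene lengths were found from the batch 1 values, as the smallest whole length giving whole numbers in every library (6828 of 6832 genes). That 100% of the batch 1 values checked were whole is therefore by construction. In batch 2 value times length was whole in at least 99.92%, after division by 1 fitted factor per library of 0.565 to 0.753 (tolerance 0.02). The sources used here do not say how the authors set these factors. Whole-number units are not called reads, so no count test was used.

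Each batch was fitted apart. Genes had to average at least 0.1 over 12 libraries (6579 and 6950 genes in batches 1 and 2). A limma model (version 3.58.1, R 4.3.3) with a mean for every group was fitted to log2(value + 0.1), with trended robust empirical Bayes and Benjamini-Hochberg adjustment at 0.05 over all genes within each of 18 contrasts, two-sided. Fold changes are on this scale, which understates changes of low genes. A difference between lines is the interaction of line and treatment. Simulated data with 50 genes changed per size were tested at 1.25-, 1.5-, 2- and 3-fold. For the INTS11 contrast of batch 1, 22, 42, 47 and 50 of 50 were recovered (6579 genes, 2 false calls). For N211del 3 h against 0 h, 34, 47, 45 and 46 of 50 were recovered (6950 genes, 5 false calls). In the real contrasts 2575 and 4410 genes were called, far more than were changed in the simulation, so these rates may not carry over.

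Full statistics were given for the 3 called members with the largest rise and fall per treatment comparison, the 2 with the largest difference per other comparison and paralogue-type members. Results of some genes are not reported here, and the plots that name genes hold 29 members. Other members were named after their values were seen. From each pathway list the 2 called genes with the largest change were eligible. Members, lists and tests were chosen with earlier results of these data known. Alternatives were other pseudocounts and filters, median centring, cyclic loess, a loess on gene length, a replicate block, only the named libraries and each library left out. Averaging of pairs that agree within counting noise (chi-square test on units) was added after seeing the data. Start-site windows came from RefSeq promoters (GRCh38.p14). Tables and plots used matplotlib 3.10.9, scipy 1.17.1, pandas 2.3.3, numpy 2.4.6 and Python 3.11.15.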

Additional observations from a re-analysis of the deposited data

Results flagged for a closer look

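For the 6 genes given here, the response to dTAG13 in one line differed from that in another by an interaction test in limma. Each was among the 2 called members with the largest difference in a comparison of responses. More members were called in these comparisons, with the counts given above. In batch 1 RPL22L1 (log2 difference 0.46) and RPL27 (0.30) had less negative responses in N211del than in INTS8 cells. RPS27L differed by -0.41 for INTS11 minus N211del, at 65 to 114 units per library. In batch 2 RPL29 and RPL22 differed by -0.17 each at 1 h for INTS11 minus N211del, and at 3 h RPL22L1 differed by 0.33 and RPL6 by -0.23. Of these, the RPL22L1 differences also passed with each library centred on its median gene, and the others did not. The 3 h order of INTS11 and N211del cells for RPL22L1 was not the same in batch 1. There it changed by -0.66 and -0.32 as deposited, and by -0.63 and -0.58 with centring. The causes were not tested.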

How the results depend on the processing

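Counts are of members called lower (in comparisons between lines, in either direction). Shares of all genes with centring stand with the results above, where members passed. Shares are not shown for pairs counted as 1 sample, only the libraries compared, a mean of at least 1 or a library left out. Those counts cannot be set against all genes here. Counting pairs that agree within counting noise as 1 sample gave, for 3 h against DMSO in batch 1, 9 in INTS11 cells in place of 22 and 1 in N211del cells in place of 4. In batch 2 it gave 4 and 8 in INTS11 cells at 1 and 3 h in place of 11 and 16, and in N211del cells 7 at 3 h in place of 14 and 0 between 1 and 3 h in place of 1. For the response differences it gave 0 (INTS11 minus INTS8), 0 (N211del minus INTS8) and 1 (INTS11 minus N211del) in batch 1, and 1 at 1 h and 1 at 3 h. Among untreated lines it gave 12 (INTS8 against INTS11), 14 (N211del against INTS8) and 7 (N211del against INTS11). Centring gave 30 in N211del cells of batch 1, 25 in INTS11 cells at 1 h, 30 and 30 in N211del cells at 1 and 3 h and 0 between 1 and 3 h, and 14, 1, 19 and 13 for INTS11 minus INTS8, N211del minus INTS8, and INTS11 minus N211del at 1 and 3 h, and 17 for INTS8 against INTS11. Cyclic loess gave 13 in INTS11 and 13 in N211del cells of batch 1 (21% and 28.8% of all genes). It gave 20 in INTS11 cells at 1 h (28.1%). In N211del cells it gave 20 and 23 at 1 and 3 h (32.3% and 34%) and 2 between them (8.68%). For response differences it gave 4 for INTS11 minus INTS8 (19.3% of all genes lower, 17% higher) and 1 for N211del minus INTS8 (7.11% and 3.72%). INTS11 minus N211del gave 3 in batch 1 (17.4% and 16.1%) and 6 at 1 h (23.3% and 22.4%). INTS8 against INTS11 gave 10 (19.9% and 18.7%). A loess on gene length gave 30 in N211del cells of batch 1 (41.8% of all genes fell). It also gave 30 at 1 and 3 h in INTS11 (42.9% and 42.4%) and N211del cells (44% and 45.2%) of batch 2. For INTS11 minus INTS8 it gave 18 (17.9% of all genes lower, 20.9% higher). INTS11 minus N211del gave 3 in batch 1 (18.3% and 16.2%) and 10 at 1 h (24.3% and 23%). INTS8 against INTS11 gave 5 (31.1% and 16.8%). N211del against INTS11 gave 25 (24 lower, 1 higher, beside 42% and 24.3%). Fitting only the libraries compared gave 7 in INTS11 cells at 1 h, 2 in N211del cells between 1 and 3 h, 11 for N211del minus INTS8 and 5 for INTS11 minus N211del. Testing genes with a mean of at least 1 gave 1 between 1 and 3 h in INTS11 cells and 2 in N211del cells.

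Leaving out 1 library at a time gave, in batch 1, 14 to 24 in INTS11, 18 to 23 in INTS8 and 2 to 7 in N211del cells. In batch 2 it gave 5 to 12, 13 to 16 and 0 to 1 in INTS11 cells at 1 h, 3 h and between them, and 3 to 9, 7 to 16 and 0 to 1 in N211del cells. The response differences ranged over 1 to 3 (INTS11 minus INTS8), 1 to 18 (N211del minus INTS8), 3 to 13 (INTS11 minus N211del), 1 to 4 at 1 h and 5 to 9 at 3 h. The untreated lines ranged over 15 to 31 (INTS8 against INTS11), 17 to 22 (N211del against INTS8), 6 to 12 (N211del against INTS11) and 30 to 31 at 0 h.

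Directions turned with centring for RPS4X in N211del cells of batch 1 (-0.25), at 1 h in INTS11 (-0.031) and N211del cells (-0.23) and between 1 and 3 h in N211del cells (0.015), and for RPL29 and RPL22 in the 1 h difference (0.028 each). With the length loess they turned for RPS4X in N211del cells of batch 1 (-0.32), at 1 and 3 h in INTS11 cells (-0.24 and -0.32) and at 1 h in N211del cells (-0.35), and for RPS15 between N211del and INTS11 lines (-0.036). The causes were not tested. RPL22L1 kept its call in batch 1 and in N211del cells of batch 2 at 1 and 3 h under every alternative run. Replicate numbers did not pair libraries (correlations of deviations -0.105 to 0.082 in batch 1 and -0.079 to 0.042 in batch 2). With the replicate number as a block the 1 h difference gave 1 call in place of 3, and no other count moved by over 1.5 times. At 65 to 114 units per library, depth limits RPS27L most.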
